A study of Homo sapiens with 6 samples.

Results

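The ABC efflux transporters described here are 10 genes, ABCC1, ABCC2, ABCC3, ABCC4, ABCC5, ABCC10, ABCB1, ABCG2, ABCA1 and ABCG1. They were chosen by symbol from the 58884 genes of the expression matrix, and each symbol stood on 1 row. The rule itself uses symbols and no measured value, but the genes were chosen with earlier results of these data known.

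ABC transporters are membrane proteins that use ATP to move substrates across a membrane, most of them outward. The ABCC proteins of the MRP group carry organic anions, above all drugs and metabolites coupled to glutathione, glucuronate or sulfate, so they act after the conjugating enzymes. ABCB1, or P-glycoprotein, and ABCG2, or BCRP, export a wide range of unmodified drugs, and ABCA1 and ABCG1 export cholesterol and phospholipid to apolipoproteins and lipoprotein particles. Several ABCC genes and ABCG2 are known as targets of NRF2, the transcription factor that KEAP1 holds at a low level.

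RNA was sequenced from KYSE450, a human esophageal squamous cell carcinoma (ESCC) line with wild-type NRF2, and from KEAP1null-KYSE450, a line derived from it in which KEAP1 was targeted with CRISPR-Cas9, with 3 libraries of each. Neither line was treated. KEAP1null-KYSE450 is a single clone, so any other difference of that clone from its parental line enters the same comparison. Nothing states that the 3 libraries of a line came from separate cultures, and p-values therefore measure the spread between these libraries, which may be technical. In bulk RNA, a change in every cell and a change in the share of cells with the transcript cannot be told apart.

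The libraries held between 54829313 and 57380170 summed normalized counts, which are read counts divided by 1 size factor per library. Read numbers could be recovered for 4 libraries and lay between 53027359 and 61543442, and 3 reads, taken as the floor of detection, correspond to between 2.77 and 3.21 normalized counts. This floor covers counting error only. KEAP1 mRNA averaged 5377 ± 334 normalized counts in KYSE450 cells and 5320 ± 415 in KEAP1null-KYSE450 cells (SD, n = 3 each), so the transcript level did not mark the edited line, and counts per gene do not show an edit. All 10 squamous epithelial markers were expressed, although KRT5 and KRT4 rose and KRT6A, KRT14 and KRT13 fell in the edited line. Markers of leukocytes summed to between 23.3 and 31.0 normalized counts in KYSE450 libraries and between 2.04 and 5.54 in KEAP1null-KYSE450 libraries. Those of endothelium summed to at most 74.8 in either line, with PECAM1 at 0. Those of hepatocytes and enterocytes, cells in which several of the transporters are abundant, summed to at most 3.21 and 7.38, with APOB, SI and FABP2 at 0. Fibroblast markers summed to between 624 and 854 in KYSE450 libraries and between 353 and 437 in KEAP1null-KYSE450 libraries, nearly all of it COL1A1, with a mean of COL1A2, DCN and PDGFRA under 2 in both lines.

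The edited line carried more transcript of the conjugate exporters ABCC2 and ABCC3, of the drug exporters ABCG2 and ABCC5, and of ABCA1 at a low level, and less of ABCC10. Of the 10 genes, 9 had a mean of at least 10 normalized counts over the 6 libraries and were tested with limma on log2(normalized count + 1), among 16701 genes. A call needed a change of at least 1 on the log2 scale, in either direction, besides an adjusted p (Benjamini-Hochberg) under 0.05. By this rule 5 transporters rose, where 12.2% of all genes tested rose, and 1 fell, where 5.98% of all genes tested fell. ABCA1, among the 5, passed the filter only through its level in the edited line. By the adjusted p alone, 5 were higher, against 24.3% of all genes tested, and 3 were lower, against 25.5%. The median log2 fold change of the 9 genes was 1.16, beside 0.004 over all genes tested. Since earlier results of these data were known when the genes were chosen, the comparison with all genes is a description. The libraries of the lines did not overlap for 8 of the transporters, and this held for 57.8% of all genes tested. On the log2(normalized count + 1) scale the change of genes with low counts is understated.

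**Figure D1:**
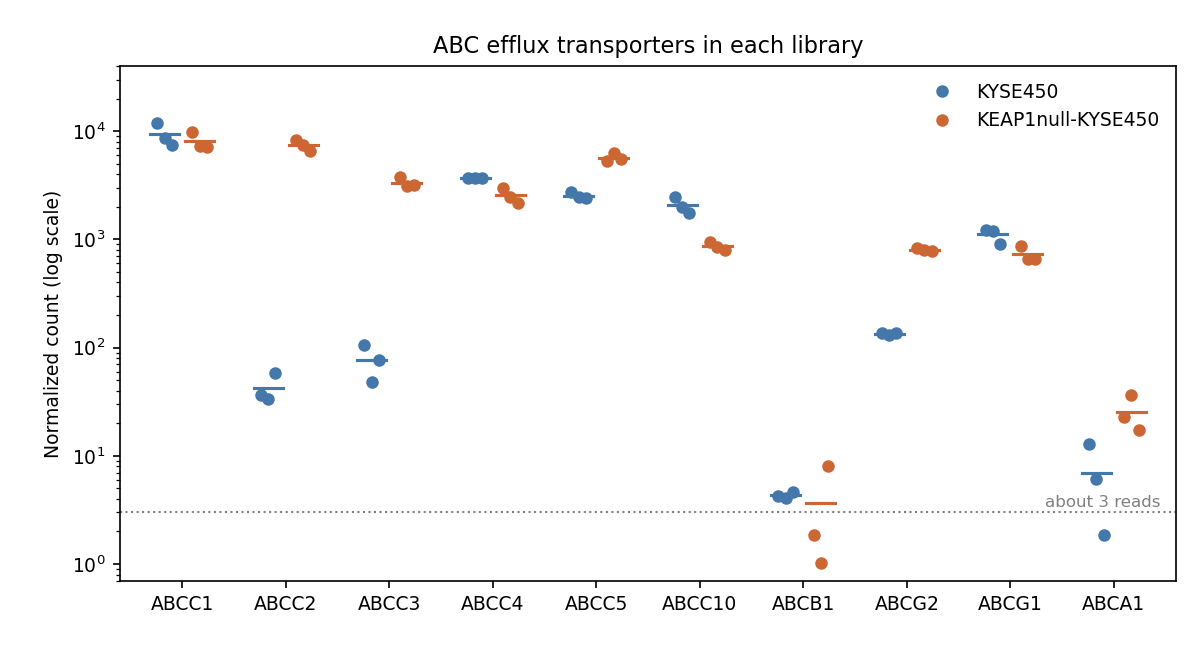
Normalized counts (log scale) of the 10 transporters in the 3 KYSE450 and 3 KEAP1null-KYSE450 libraries. Each point is a library, spread sideways only so that points can be seen, the short lines are group means and the dotted line marks about 3 reads. The widest gap is at ABCC2, with means of 42.5 and 7443, and the lines overlap for ABCC1 and ABCB1.

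ABCC2, known as MRP2, exports glutathione and glucuronide conjugates at the apical membrane. Its gene, with 32 exons, spans 99782640 to 99852594 of chromosome 10 (hg38, plus strand). The 3 KYSE450 libraries held 36.4, 33.4 and 57.8 normalized counts, and the KEAP1null-KYSE450 libraries held 8296, 7430 and 6604. Every library of the edited line was far above every parental library. The means were 42.5 ± 13.3 and 7443 ± 846 (SD, n = 3 each), a ratio of 175, which limma gave as a log2 fold change of 7.45 (adjusted p = 1.0e-11, standard error 0.19). Over 16 other settings it lay between 7.17 and 7.69 and was called in each.

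ABCC3, or MRP3, exports glucuronide conjugates and bile salts at the basolateral membrane, the side opposite to ABCC2. It spans 50634777 to 50692253 of chromosome 17 (plus strand). Values were 106, 48.5 and 77.4 normalized counts in KYSE450 libraries and 3748, 3100 and 3186 in KEAP1null-KYSE450 libraries. The lines were again far apart, and the parental libraries varied among themselves by a factor of 2.18. The means, 77.3 ± 28.7 and 3345 ± 352 (SD, n = 3 each), differed by a ratio of 43.3, with a log2 fold change of 5.48 (standard error 0.22, limma adjusted p = 1.4e-09). Its range over the 16 other settings was 5.19 to 5.74, and each of them called it.

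ABCC5, or MRP5, transports cyclic nucleotides and nucleotide analogs, among them products of fluoropyrimidine drugs. The gene spans 183919934 to 184017939 of chromosome 3 (minus strand). It already stood at 2717, 2468 and 2407 normalized counts in KYSE450 libraries and reached 5250, 6228 and 5493 in the edited line. Libraries of the same line lay close together and the lines did not overlap. The log2 fold change of 1.16 (standard error 0.10, limma adjusted p = 1.5e-06) corresponds to means of 2531 ± 164 and 5657 ± 509 (SD, n = 3 each) and a ratio of 2.24. It was between 1.09 and 1.29 in the other settings, and the call was lost only when limma tested against a fold change of 2, where the adjusted p was 0.6.

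ABCC1, or MRP1, the broadest exporter of glutathione conjugates and of glutathione disulfide, did not change by either rule. Its position is chromosome 16, plus strand, from 15949138 to 16143257, with 31 exons. KYSE450 libraries had 11922, 8638 and 7433 normalized counts and KEAP1null-KYSE450 libraries had 9801, 7280 and 7125. The lines overlapped, with the first library of each the highest. The means were 9331 ± 2323 and 8068 ± 1503 (SD, n = 3 each), and the log2 fold change of -0.20 had a 95% interval from -0.55 to 0.16 (limma adjusted p = 0.34). A rise or a fall of 2-fold lies outside that interval.

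ABCC4, or MRP4, exports cyclic nucleotides, prostaglandins and nucleotide analogs. It lies on chromosome 13, minus strand, from 95019835 to 95301475. Parental libraries held 3673, 3728 and 3683 normalized counts, the smallest relative spread among the 10 genes in that line, and edited libraries held 2997, 2472 and 2175. All edited libraries were below all parental ones. The log2 fold change was -0.55 (standard error 0.12, limma adjusted p = 0.0018), which passed the adjusted p but not the fold change threshold. The adjusted p was over 0.05 with edgeR (0.076) and DESeq2 (0.055) on the recovered reads of 4 libraries.

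ABCC10, or MRP7, a lysosomal and plasma membrane exporter of taxanes and other natural product drugs, was the single transporter of the 10 that fell by both thresholds. It spans 43427366 to 43450427 of chromosome 6 (plus strand). The values were 2488, 1990 and 1745 normalized counts in KYSE450 libraries and 944, 853 and 790 in KEAP1null-KYSE450 libraries, with no overlap. The log2 fold change was -1.25 (standard error 0.14, limma adjusted p = 1.1e-05) from means of 2074 ± 378 and 862 ± 77.4 (SD, n = 3 each). Over the other settings it lay between -1.37 and -1.11, and the call was lost only in the limma test against a fold change of 2 (adjusted p = 0.42). The last 76 bases of ABCC10 overlap DLK2, which is read from the opposite strand and whose mean was 1689 and 606 normalized counts in the same order. Whether reads were counted by strand is not given, and the part of this overlap in the ABCC10 values was not tested.

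ABCG2, the exporter of sulfate conjugates, urate and many anticancer drugs, rose with little spread between the libraries of a line. The gene is on chromosome 4, minus strand, from 88090150 to 88231628. It had 137, 131 and 136 normalized counts in KYSE450 libraries and 831, 793 and 783 in KEAP1null-KYSE450 libraries. Within either line the highest library exceeded the lowest by at most a factor of 1.06, while the line means of 135 ± 2.97 and 802 ± 25.1 (SD, n = 3 each) differed by a ratio of 5.95. The log2 fold change was 2.56 (standard error 0.14, limma adjusted p = 1.7e-08) and was at least 2.42 in each of the 16 other settings.

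ABCB1, the classical multidrug pump, was close to the floor in both lines. Its gene, on chromosome 7, minus strand, from 87503017 to 87713323, had 4.28, 4.04 and 4.66 normalized counts in KYSE450 libraries and 1.85, 1.02 and 8.07 in KEAP1null-KYSE450 libraries. The edited libraries lay on both sides of the parental ones. ABCB1 did not reach the mean needed for the test, and in the fit without a filter its log2 fold change was -0.51 (standard error 0.71, limma adjusted p = 0.64). A change of ABCB1 was not detectable at this depth. RUNDC3B overlaps 85776 bases of ABCB1 on the opposite strand and had means of 140 and 248.

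Of ABCA1 and ABCG1, the exporters of cellular cholesterol, ABCA1 was called higher and ABCG1 was not called. ABCA1, on chromosome 9, minus strand, from 104781006 to 104928155, had 12.8, 6.07 and 1.87 normalized counts in KYSE450 libraries and 23.1, 36.7 and 17.2 in KEAP1null-KYSE450 libraries. The lines did not overlap, but the highest parental library was nearer to the lowest edited library than to the lowest parental one. The log2 fold change was 1.96 with a 95% interval from 0.58 to 3.34 (limma adjusted p = 0.022), from means of 6.92 ± 5.54 and 25.6 ± 10.0 (SD, n = 3 each). The KYSE450 mean was under the filter of 10, so ABCA1 was tested only because of its level in the edited line. The call was lost without KYSE450 library 3 (log2 fold change 1.36, adjusted p = 0.063) and without KEAP1null-KYSE450 library 2 (1.68, adjusted p = 0.11). It was also lost in 4 further settings, edgeR and DESeq2 included, and the adjusted p ranged from 0.0052 to 0.67 over 15 settings.

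ABCG1, which passes cholesterol to lipoprotein particles, was far more abundant than ABCA1 per kb of exon in both lines. It lies on chromosome 21, plus strand, from 42199689 to 42297244. It was measured at 1222, 1198 and 910 normalized counts in the parental libraries and at 865, 655 and 664 in the edited ones. The edited libraries were all lower, the highest of them by a small margin. The log2 fold change was -0.61 (standard error 0.15, limma adjusted p = 0.0049), short of the fold change threshold, and the adjusted p was 0.088 with edgeR and 0.096 with DESeq2 on the reads of 4 libraries.

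**Figure D2:**
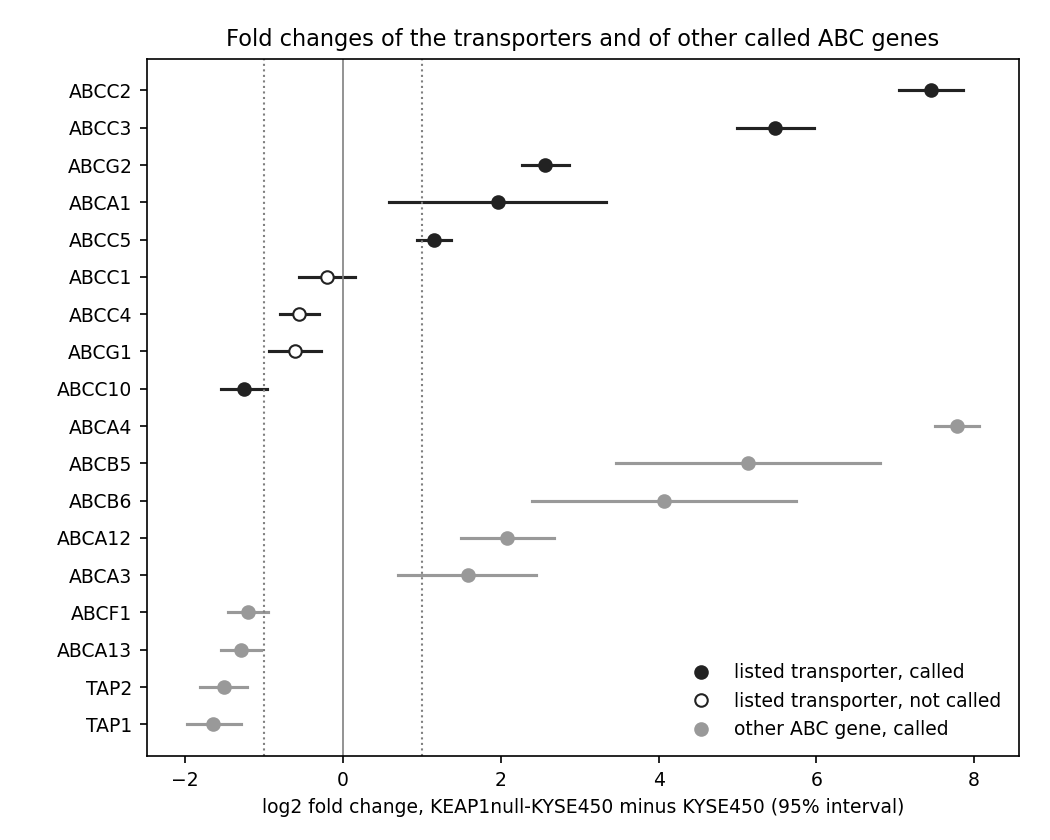
Log2 fold change (KEAP1null-KYSE450 minus KYSE450) with its 95% interval from limma for the 9 tested transporters and for the 9 other ABC genes that were called. Filled points were called, open points were not, and dotted lines mark a log2 fold change of 1 in either direction. ABCC2 at 7.45 stands beside ABCA4 at 7.78, and the interval of ABCA1 is the widest of the listed transporters.

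To compare the transporters with each other, normalized counts were divided by the length of the union of annotated exons in kb. In KYSE450 cells, ABCC1 led with 1068 ± 266 normalized counts per kb (SD, n = 3), followed by ABCC4 with 428 ± 3.40. ABCC10 (256 ± 46.8) and ABCC5 (223 ± 14.4) came next, and their libraries overlapped, so they did not differ beyond their spread. ABCG1 followed at 181 ± 28.4 and ABCG2 at 24.1 ± 0.531. ABCC3 (8.04 ± 2.98) and ABCC2 (5.42 ± 1.70) overlapped near the bottom, above ABCB1 and ABCA1, which were both under 1 on average.

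In KEAP1null-KYSE450 cells the order was another. ABCC2 (950 ± 108 normalized counts per kb, SD, n = 3) and ABCC1 (924 ± 172) shared the first place, with libraries that overlapped. ABCC5 was next at 498 ± 44.8, and ABCC3 (348 ± 36.6) overlapped with ABCC4 (295 ± 48.2). ABCG2 (143 ± 4.47), ABCG1 (119 ± 19.4) and ABCC10 (107 ± 9.57) formed a chain in which each overlapped with its neighbour, and ABCA1 (2.26 ± 0.884) and ABCB1 (0.568 ± 0.600) were last. With the longest annotated transcript as the length, 2 genes changed place in KYSE450 cells, ABCC5 and ABCC10, and 3 did in KEAP1null-KYSE450 cells, ABCG2, ABCG1 and ABCC10.

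The summed level of the 6 ABCC transporters per kb was 2353, 1893 and 1721 in KYSE450 libraries and 3496, 3044 and 2823 in KEAP1null-KYSE450 libraries, so the sum was higher in each edited library. Its make-up differed between the lines as well. ABCC1 made up 53.2% ± 4.37 of the sum in KYSE450 cells and 29.5% ± 2.40 in KEAP1null-KYSE450 cells (SD, n = 3 each). ABCC5 went from 11.3% ± 1.08 to 16.1% ± 2.55, ABCC2 from 0.284% ± 0.126 to 30.4% ± 0.659, and ABCC3 from 0.401% ± 0.116 to 11.2% ± 0.573. In contrast, ABCC4 went from 21.9% ± 3.45 to 9.43% ± 0.502 and ABCC10 from 12.9% ± 0.288 to 3.42% ± 0.0723. For each of the 6 genes the shares in the 3 libraries of one line did not overlap with those of the other. Shares of the same sum depend on each other, so a rise of some genes lowers the shares of others. The share of ABCC1 thus fell although its own level did not change by either rule. These shares are of transcripts and were not tested.

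**Figure D3:**
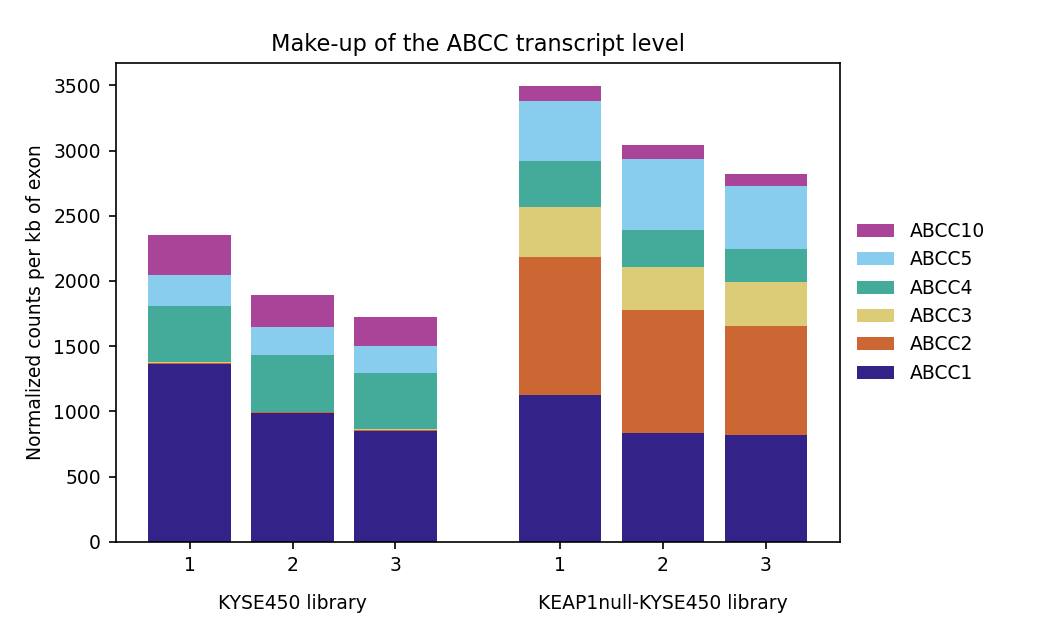
Normalized counts per kb of exon of the 6 ABCC transporters, stacked for each library of KYSE450 and KEAP1null-KYSE450 cells. ABCC2 and ABCC3 are thin lines in the parental stacks, at 0.284% and 0.401% of the sum on average, and reach 30.4% and 11.2% in the edited line.

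NRF2 binds antioxidant response elements, and the promoters of the transporters were therefore searched for their core, TGACNNNGC, on both strands. RefSeq promoters (GRCh38.p14, 250 bases before to 50 after a start site) were at hand for 7 of the 10 genes, in 13 windows, while ABCC1, ABCC3 and ABCG1 had no entry. The core was present in 3 of the 13 windows, while 13.3% of the 35116 promoters of the table hold it. These windows belong to 3 genes, ABCC4, ABCC10 and ABCG2. ABCC10 and ABCG2 had more than 1 window, and so more places for a match. The matches with 10 bases on each side are shown because 2 of these genes had lower and 1 had higher transcript in the edited line. They are written 5′ to 3′ in the direction of the gene, with the core in capitals.

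ABCC4, chr13:95301582-95301610, minus strand: gtctcctcccGCCGCGTCAcccgtcggtc

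ABCC10, chr6:43427388-43427416, plus strand: aggttataaaTGACGTTGCactaagggag

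ABCG2, chr4:88159271-88159299, minus strand: gcagcgcttgTGACTGGGCaacctgtgcg

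The ABCC4 match reads as the reverse complement of the core and starts 149 bases before the start site, the ABCC10 match starts 143 bases before one of 2 listed start sites, and the ABCG2 match begins at base 2 after one of 5 listed start sites. None overlaps a TGANTCA motif. The window of ABCC2, the gene with the largest fold change of the 10, held no core. Its 250 bases before the start site, chr10:99782390-99782639 on the plus strand, are shown for that reason.

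ABCC2: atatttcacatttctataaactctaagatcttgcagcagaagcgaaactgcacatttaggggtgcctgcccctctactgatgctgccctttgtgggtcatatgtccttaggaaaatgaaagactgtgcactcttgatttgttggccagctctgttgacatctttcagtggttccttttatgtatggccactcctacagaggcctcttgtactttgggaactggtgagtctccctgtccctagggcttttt

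A match is a stretch of letters and no binding was measured. The absence of the core says only that these letters are not in this window.

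Because the lines differ by a clone, each transporter was set beside the 5 tested genes nearest to it on each side of its chromosome. These stretches ran from 0.49 Mb around ABCC10 to 4.30 Mb around ABCA1. They show only whether nearby genes changed too, and not other differences of the clone. The neighbours named here were picked after their values were seen. The neighbours of ABCC2 had log2 fold changes between -1.13 and 0.66 with a median of -0.31, so none came near the 7.45 of ABCC2. For ABCC3, at 5.48, the neighbours had a median of 0.40 and reached 1.40 at EPN3, and for ABCC5, at 1.16, they had a median of 0.12. Of the neighbours of ABCC10, 9 of 10 had a negative log2 fold change, with a median of -0.53. By the adjusted p 6 were lower, which 25.5% of all genes tested were. By both thresholds 2 fell, ZNF318 (-1.05) and the overlapping DLK2 (-1.47), as did 5.98% of all genes tested.

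ABCG2 lay in a mixed stretch of chromosome 4. Of its 10 neighbours 4 rose and 2 fell, beside 12.2% and 5.98% of all genes tested. SPP1, 107 kb away, had a log2 fold change of 9.37, and SPARCL1, 559 kb away, had 7.95, while the median of the 10 neighbours was 0.05. ABCA1 was 3 kb from NIPSNAP3B, which rose with a log2 fold change of 1.65, and the median there was -0.04. Around ABCG1, 8 of 10 neighbours were negative, with a median of -0.35. By both thresholds 1 rose and 3 fell, beside 12.2% and 5.98% of all genes tested. RSPH1, with a KYSE450 mean of 9.23, rose with a log2 fold change of 2.69, and RIPK4 fell with -1.72. Around ABCB1, 9 of 10 neighbours were positive, with a median of 0.33, 5 were higher by the adjusted p, against 24.3% of all genes tested, and TP53TG1 rose with a log2 fold change of 1.49. The medians were 0.10 around ABCC1 and -0.10 around ABCC4.

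**Figure D4:**
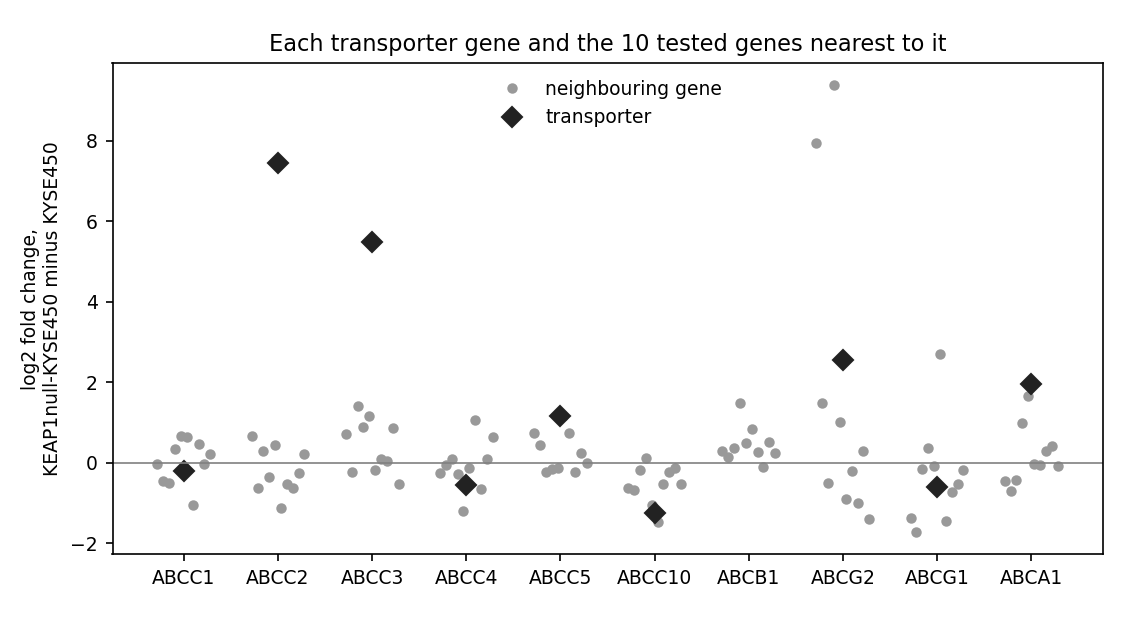
Log2 fold change (KEAP1null-KYSE450 minus KYSE450) of each transporter (diamond) and of the 10 tested genes nearest to it (grey points, spread sideways only for view). ABCC2 and ABCC3 lie far above all their neighbours, 9 neighbours of ABCC10 are negative and 9 of ABCB1 are positive, and ABCB1 has no diamond because it was not tested.

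The other 38 ABC genes were gone through by subfamily, and 24 of them were tested. Of these, 5 rose, 4 fell and 15 did neither, with a median log2 fold change of -0.20. Over all genes tested, 12.2% rose and 5.98% fell. ABCB5 and ABCB6, among the 5, passed the filter only through their level in the edited line. ABCA4, the retinoid transporter of photoreceptors, had 35.3, 35.4 and 37.3 normalized counts in KYSE450 libraries and 9119, 7723 and 7582 in KEAP1null-KYSE450 libraries. The parental libraries were nearly equal and the edited ones were all far above them, with a log2 fold change of 7.78 (standard error 0.13, limma adjusted p = 1.6e-13). ABCA12, a lipid transporter of keratinocyte lamellar granules, rose with a log2 fold change of 2.08 (adjusted p = 4.7e-05 from limma), and ABCA3, the phospholipid transporter of lung surfactant, with 1.58 (adjusted p = 0.0061). ABCB5 rose from 1.07, 13.1 and 0 to 95.0, 96.8 and 134 normalized counts. ABCB6, a porphyrin transporter, was at or below the floor in each KYSE450 library and at least 6.98-fold higher in KEAP1null-KYSE450 cells against 3 reads per library. Its mean fell below the filter, and the call was lost, whichever KEAP1null-KYSE450 library was left out.

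The ABC genes that fell were TAP1 (log2 fold change -1.64), TAP2 (-1.51), ABCA13 (-1.29) and ABCF1 (-1.20). TAP1, TAP2 and ABCF1 lie on chromosome 6, as ABCC10 does, and ABCA13 lies on chromosome 7. A link between position and these falls was not tested. TAP1 and TAP2 form the peptide transporter of antigen presentation, and ABCF1 belongs to a group without membrane domains that acts in translation. The 4 genes of subfamilies E and F were all lower by the adjusted p, which 25.5% of all genes tested were. In the closest subfamily, C, only ABCC6 and ABCC11 of 6 further genes were tested, with log2 fold changes of 0.65 and 0.82 and limma adjusted p of 0.29 and 0.15. Over all 48 ABC genes, 33 were tested, and the median log2 fold change was -0.17. Of the 33, 10 rose and 5 fell, beside 12.2% and 5.98% of all genes tested. The 10 include ABCA1, ABCB5 and ABCB6, which were tested only because of their level in the edited line.

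Transcripts of proteins that hold apical transporters at the membrane were read next, since ABCC2 and ABCG2 are known as apical transporters. Protein and its location were not measured. NHERF1, listed as SLC9A3R1 and a scaffold that binds the tail of ABCC2, had 4087, 3672 and 3668 normalized counts in KYSE450 libraries and 23329, 20692 and 22786 in KEAP1null-KYSE450 libraries. It rose in each edited library, with a log2 fold change of 2.55 (standard error 0.09, limma adjusted p = 4.9e-10). EZR, the ezrin gene, which links such scaffolds to actin, fell from 32484 ± 3517 to 16275 ± 2479 normalized counts (limma adjusted p = 3.1e-05), at the fold change threshold itself, and its call was lost in 6 of 16 other settings. Of the 7 anchors, 5 were tested, 1 rose and 1 fell, beside 12.2% and 5.98% of all genes tested. RDX, the radixin gene, had a log2 fold change of -0.01 and NHERF2, listed as SLC9A3R2, had -0.66.

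Carriers that bring drugs and organic ions into cells, together with the MATE exporters SLC47A1 and SLC47A2, formed a list of 25 genes. Of the 14 tested, 7 rose and 2 fell, beside 12.2% and 5.98% of all genes tested, with a median log2 fold change of 0.83. SLC22A8 and SLCO2A1, among the 7, passed the filter only through their level in the edited line. SLC47A2 rose with a log2 fold change of 2.71, from 213 ± 16.4 to 1395 ± 20.8 normalized counts (SD over 3 libraries). SLC22A8, an organic anion transporter of the kidney, was at 0 in each KYSE450 library and at least 7.66-fold higher in KEAP1null-KYSE450 cells, with 17.5, 24.5 and 27.2 normalized counts. Without KEAP1null-KYSE450 library 2 or 3 it fell below the filter and the call was lost. SLCO2A1, a prostaglandin carrier, went from 4.28, 1.01 and 3.73 to 52.6, 33.6 and 26.2 normalized counts. SLCO4A1, a carrier of thyroid hormone and prostaglandin, fell with a log2 fold change of -2.05, from 1064 ± 102 to 256 ± 29.4.

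Genes that handle drugs used in ESCC were read beside the exporters. Of 5 platinum and copper genes, limma called 0, with 2 at an unadjusted p under 0.05, and edgeR and DESeq2 called 0 as well. In limma 12.2% of all genes tested rose and 5.98% fell, so 0 calls among 5 genes do not show an absence of change. The copper carrier SLC31A1, known to take up cisplatin, had a log2 fold change of 0.11, and the copper pump ATP7A had 0.65 (limma adjusted p = 0.0051). Of 10 tested genes of fluoropyrimidine uptake and metabolism, 4 fell and 9 were lower by the adjusted p alone, with a median of -0.83. Over all genes tested these shares were 5.98% and 25.5%. TYMP, the thymidine phosphorylase gene, fell from 280 ± 68.2 to 47.9 ± 5.37 (SD, n = 3 each), UPP1 had a log2 fold change of -1.62, the nucleoside carrier SLC29A1 had -1.37 and RRM1 had -1.06. The call of RRM1 was lost in 3 of 16 other settings, edgeR included, where its log2 fold change was -0.99. Of 5 tested folate genes limma, edgeR and DESeq2 each called 0, with 3 at an unadjusted p under 0.05 in limma. This again stands beside 12.2% of all genes tested that rose and 5.98% that fell in limma. The folate carrier SLC19A1 had a log2 fold change of -0.63. Drug transport and response were not measured in these libraries.

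Among 14 regulators known to act on ABC genes, 11 were tested. By both thresholds 1 rose and 0 fell, beside 12.2% and 5.98% of all genes tested. By the adjusted p alone 3 were higher and 4 were lower, against 24.3% and 25.5%. RXRA, the partner of the liver X receptors (LXR) and of other nuclear receptors, rose with a log2 fold change of 1.22 (limma adjusted p = 2.6e-06). NR1I2, the pregnane X receptor (PXR) gene, and NR1H4, the bile acid receptor gene, were listed at 0 in all libraries, and none of 6 target genes of PXR and of the constitutive androstane receptor (CAR) reached the filter. The LXR genes NR1H2 and NR1H3 had log2 fold changes of 0.08 and 0.16. Of 9 tested LXR targets other than ABCA1 and ABCG1, 3 rose, beside 12.2% of all genes tested, and the median log2 fold change was 0.16. By the adjusted p alone 4 were higher and 3 were lower, against 24.3% and 25.5%. PLTP (1.60) and APOC1 (1.41) were among the 3 that rose, while SREBF1 had -0.98, short of a call. The call of APOC1 was lost in 3 of 15 other settings, DESeq2 included (adjusted p = 0.063). NFE2L2, the gene of NRF2, had a log2 fold change of -0.47 (limma adjusted p = 6.3e-04), lower by the adjusted p alone.

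**Figure D5:**
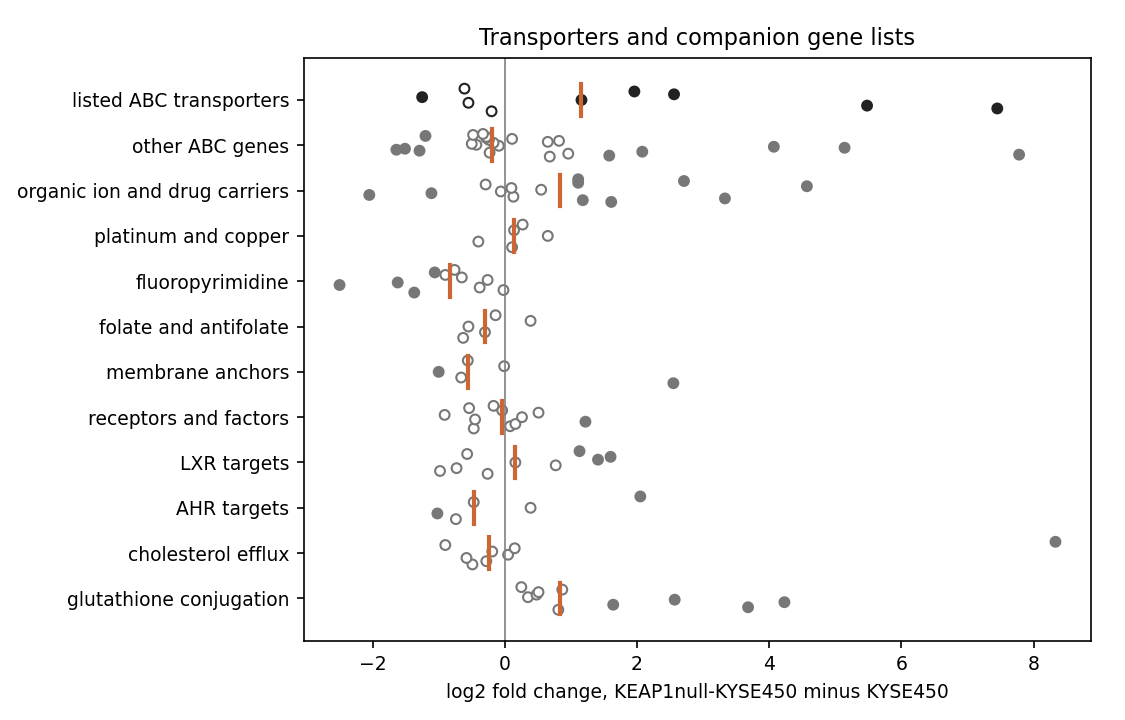
Log2 fold change (KEAP1null-KYSE450 minus KYSE450) of the tested transporters and of the tested genes of 11 companion lists. Filled points were called, open points were not, and the orange bars are medians, which run from -0.83 for fluoropyrimidine genes to 1.16 for the listed transporters.

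Genes with a pattern most like those of the 2 transporters with the largest change were looked up among all genes tested, by the root mean square difference of log2 values centred on each gene's mean over the 6 libraries. Nearest to ABCC2 were LZTS1 (0.164), ABCA4 (0.273) and SAMD5 (0.281). LZTS1 was at or below the floor in the parental line. Nearest to ABCC3 were GABRA2 (0.241) and the long noncoding RNA AC097713.1 (0.257). With 2 lines of 3 libraries each, this measure mostly reads the size of the difference between the lines.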

How the data were processed

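RNA of 3 KYSE450 and 3 KEAP1null-KYSE450 libraries was analysed from the deposited matrix. Per the labels, the authors used FastQC (0.11.5), cutadapt (1.12), STAR (2.6.90c) and featureCounts (1.5.1), and their build for human data is hg38. The deposited values are a signal per gene, a read count divided by 1 size factor per library, as the authors normalized it. In 4 libraries 100% of values gave whole reads within 0.1 of a whole number. Columns name only the line, and libraries are numbered by column order. No column belonged to another sample. The methods name RefSeq, while genes carry Ensembl identifiers. All 10 transporters matched gencode v44.

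In R 4.3.3, limma 3.58.1 (lmFit, then eBayes with its trend option) compared the lines on log2(normalized count + 1), two-sided, for the 16701 genes averaging 10 or more, with Benjamini-Hochberg adjustment over all of them. Several named genes averaged under 10 in KYSE450 libraries and passed this filter through the edited line alone. Among them were ABCA1, ABCB5, ABCB6, SLC22A8, SLCO2A1, CES1 and GSTM2. A DESeq2 count test, as in the study, does not suit these values. DESeq2 (1.42.0) and edgeR (4.0.16, quasi-likelihood with TMM) were run as alternatives on recovered reads of 4 libraries. Further alternatives changed the pseudocount to 0.1 or 10 and the filter to none or to a mean of 100, or used equal totals, quantile normalization, eBayes without trend, a test against a fold change of 2 (treat) and each library left out. The scripts were tested on simulated data. The transporters and gene lists were chosen with earlier results of these data known. Named genes were the 10 transporters, KEAP1, NFE2L2, each called ABC gene, up to 4 called genes per list with the largest change, genes a count needed, and the 3 nearest patterns of 2 transporters. A few genes of the lists are not reported here.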

Additional observations from a re-analysis of the deposited data

How the results depend on the processing

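No direction reversed among the 9 tested transporters, 8 of them in 16 alternative fits and ABCA1 in the 15 that kept it, while ABCB1 was fitted only without a filter. No paired analysis was possible because the columns carry no replicate numbers. When limma tested against a fold change of 2, 3 transporters were higher instead of 5, 0 were lower instead of 1, and 3 passed the adjusted p instead of 8. The same test left 2 of 4 lower calls among the other ABC genes, and 11 of 18 higher and 3 of 8 lower calls among the companion lists. With edgeR and with DESeq2 on recovered reads of 4 libraries, 5 transporters passed the adjusted p in each. Higher calls among the other ABC genes numbered 8 without a filter and 3 with a mean of at least 100, instead of 5. Lower calls of the companion lists numbered 5 after quantile normalization and between 5 and 10 with a library left out, 5 without KYSE450 library 1 or KEAP1null-KYSE450 library 2. Over all genes, higher calls were 67.2% of calls and 51.8% after quantile normalization. The cause of these changes was not tested, other than that the filters change which genes are tested and the test against a fold change of 2 asks for more. Counts near 3 reads limit ABCB1 and ABCA1.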

Other observations

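The enzymes that couple glutathione to substrates, upstream of ABCC1, ABCC2 and ABCC3, were higher in part. Of 15 genes of glutathione conjugation and mercapturate steps, 10 were tested, 4 rose and 7 were higher by the adjusted p alone, with a median log2 fold change of 0.84. GSTM2, in both counts, passed the filter only through its level in the edited line. Over all genes tested, 12.2% rose and 24.3% were higher by the adjusted p alone. GSTA1 rose from 49.6 ± 4.53 to 651 ± 108 normalized counts (SD, n = 3 each) and GSTM3 from 950 ± 138 to 5648 ± 676. GSTA4 had a log2 fold change of 1.64, and GSTM2 was at least 9.78-fold higher, since each KYSE450 library was at or below the floor of 3 reads. The KEAP1null-KYSE450 libraries of GSTM2 were far apart, at 7.38, 30.6 and 50.4 normalized counts. It fell below the filter, and the call was lost, without library 3 of that line and on the recovered reads of 4 libraries used for edgeR and DESeq2. The GSTA and GSTM genes are families of close paralogs, and their reads may have been split between members. GGT5, DPEP1 and NAT8, which act on conjugates after export, were listed at 0 in each library.

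CES1, a carboxylesterase that also hydrolyses cholesteryl esters, had 0, 0 and 10.3 normalized counts in KYSE450 libraries and 959, 645 and 605 in KEAP1null-KYSE450 libraries. It was the single gene called among 8 tested partners of cholesterol efflux, whose median log2 fold change was -0.24. In comparison, 12.2% of all genes tested rose and 5.98% fell. CES1 passed the filter only through its level in the edited line. Of 5 tested targets of the aryl hydrocarbon receptor, 1 rose and 1 fell, beside 12.2% and 5.98% of all genes tested. ALDH3A1 rose with a log2 fold change of 2.05 and CYP1B1 fell with -1.02, a call lost in 8 of 16 other settings.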
